A study of Mus musculus with 6 samples.

Results

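The genes described here encode 4 adaptor proteins of Toll-like receptors (Myd88, Tirap, Ticam1 and Ticam2), the 4 interleukin-1 receptor-associated kinases (Irak1, Irak2, Irak3 and Irak4), the co-receptor Cd14 and the receptor chaperone Unc93b1. They were chosen by name and make up 10 of the 52636 genes in each table. All 10 were found under 1 gene identifier each, and all 10 passed the filter on low counts, which kept 11561 genes. RNA was sequenced from RAW264.7 cells, a transformed macrophage line of BALB/c origin grown in high-glucose DMEM with serum and antibiotics. The 3 C2S libraries came from cells kept for 24 h with 150 µg/ml of C2S, an extract, and the 3 PM_control libraries from cells given 0 µg/ml. The labels do not spell out either name, and no label says what the controls received in place of the extract. The comparison asks how transcript levels in this 1 cell line differed with and without C2S.

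Toll-like receptors recognise microbial products at the cell surface or in endosomes and signal through adaptors that share the receptors' TIR domain. TIRAP bridges MyD88 to surface receptors such as TLR2 and TLR4, and TRAM, the product of Ticam2, bridges TRIF, the product of Ticam1, to TLR4. MyD88 gathers IRAK4, IRAK1 and IRAK2 into a complex that activates the ubiquitin ligase TRAF6 and then NF-kB, while TRIF leads to type I interferon. IRAK-M, the product of Irak3, restrains this signalling. CD14 hands lipopolysaccharide to TLR4, and UNC93B1 carries the nucleic acid receptors to endosomes. In macrophages these proteins set how strongly a cell answers bacteria and viruses.

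Library totals lay between 8594473 and 10665867 estimated reads, and a floor of 3 reads equals 0.281 to 0.349 CPM (a gene's reads per common library size), depending on the library. That floor uses the library totals alone, whereas the CPM values of genes below are also scaled by TMM normalization, so the 2 scales differ slightly. The label of macrophage was checked on 11 marker genes, such as Csf1r and Cd68. They summed to 8863 to 9265 TPM, an abundance scaled for transcript length as well, with C2S and 7711 to 8140 TPM in the controls. Lyz2 held the largest part (mean 3451 TPM with C2S), whereas Mertk had at most 1 read in a library and was below the filter. Markers of fibroblasts, T cells, neutrophils and epithelial cells summed to at most 3.99 TPM in any library, and Cd3e, Epcam, Col1a2 and Camp were at 0 in all 6. The 4 B cell markers summed to 2.48 to 4.66 TPM with C2S and 0.12 to 0.54 TPM in the controls, with Ms4a1 at 0 in all libraries. The 5 endothelial markers were all detected and summed to 2.93 to 5.51 TPM with C2S and 0.73 to 1.41 TPM in the controls. Most of that difference lay in Pecam1, which macrophages can also express and which went from 0.31 ± 0.0954 to 3.19 ± 1.26 TPM (edgeR, adjusted p = 5.3e-07), while Vwf was not called (edgeR, adjusted p = 0.131) and Cdh5, Kdr and Tek had at most 9 reads in a library. The part of these marker levels in the results below was not tested. In a bulk sample, fewer cells that hold a transcript and less of it per cell cannot be told apart. Whether replicates came from separate cultures is not in the labels, and p-values reflect only how far these libraries spread, which may be technical.

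Promoter windows were examined for 7 of the 10 genes, from 250 bases before to 50 bases after the RefSeq start (GRCm38.p6). Windows of Cd14, Ticam2 and Unc93b1 were not examined, so the window counts below leave these genes out. Windows of Irak2, Tirap and Myd88 are shown, as the members with the largest rise, the largest fall and no call. Capitals mark letters that fit a broad NF-kB pattern (GGG, any 5 bases, then CC) on either strand, where overlapping matches run together. Positions count from 1 at the start site, with bases before it negative, and the 3 windows are chr6:113638217-113638516 on the plus strand, chr9:35199856-35200155 on the minus strand and chr9:119339969-119340268 on the minus strand.
Irak2: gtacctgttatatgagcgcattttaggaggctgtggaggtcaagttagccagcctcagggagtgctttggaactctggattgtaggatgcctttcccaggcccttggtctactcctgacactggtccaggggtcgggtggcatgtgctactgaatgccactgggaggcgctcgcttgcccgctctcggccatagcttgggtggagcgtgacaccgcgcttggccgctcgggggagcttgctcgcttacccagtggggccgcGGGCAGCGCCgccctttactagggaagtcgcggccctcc
Tirap: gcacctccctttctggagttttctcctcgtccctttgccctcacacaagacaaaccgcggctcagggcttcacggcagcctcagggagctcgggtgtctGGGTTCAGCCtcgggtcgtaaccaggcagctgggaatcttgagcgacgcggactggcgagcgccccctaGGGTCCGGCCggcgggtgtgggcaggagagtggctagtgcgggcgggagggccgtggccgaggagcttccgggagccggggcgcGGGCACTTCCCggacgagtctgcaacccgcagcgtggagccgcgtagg
Myd88: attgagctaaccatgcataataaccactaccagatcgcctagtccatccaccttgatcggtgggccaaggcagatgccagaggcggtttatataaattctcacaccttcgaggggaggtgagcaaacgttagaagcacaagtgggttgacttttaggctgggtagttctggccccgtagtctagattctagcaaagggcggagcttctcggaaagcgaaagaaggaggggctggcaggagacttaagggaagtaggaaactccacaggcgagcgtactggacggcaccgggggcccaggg

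The Irak2 window held 1 match of the NF-kB pattern, at position 12. The Tirap window held 4, at positions -151, -82, 3 and 4, of which the last 2 overlap, and the overlapping window of a second RefSeq start of Tirap, farther upstream, had 2. The Myd88 window held 0, and a window with no match says only that these letters are not in it. Across the 10 windows of these 7 genes, 8 held at least 1 match, those of Ticam1, Irak1 and Irak4 included, so that matches stood in genes that rose and in genes that fell. Across all 32851 promoter windows of this length, 50.8% held at least 1 match. The AP-1 pattern TGANTCA, present in 7.81% of all windows, and the CRE pattern TGACGTCA, present in 1.79%, were in none of the 10. The GC box GGGCGG was in 9 of the 10 windows, against 35.7% of all windows, and the E-box CANNTG in 8, against 72.3%. Matches of the GC box can overlap the NF-kB pattern. Windows of the same gene overlap for Irak1 and Tirap, so the 10 are not independent. CpG dinucleotides numbered 18 in the Irak2 window, 29 in that of Tirap and 13 in that of Myd88, against a median of 7 over all windows. Windows of the 7 genes ranged from 8 CpG, at the upstream start of Irak3, to 29.

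Of the 10 genes, 4 rose with C2S (Irak2, Unc93b1, Ticam1 and Irak1) and 5 fell (Tirap, Ticam2, Cd14, Irak3 and Irak4), while Myd88 did not pass the test. The test was edgeR's quasi-likelihood test over all genes, and a gene was called at a Benjamini-Hochberg adjusted p below 0.05. Among all tested genes, 27% were called higher, 28.4% lower and 55.4% in either direction. The CPM ranges of the groups did not overlap for 9 of the 10 genes, against 61.1% of all tested genes. The median log2 fold change of the 10 genes was -0.18, beside -0.00212 over all tested genes. Changes of at least 2-fold were found for Tirap, Ticam2 and Irak2, and 14.5% of all tested genes were called with a change of that size. These counts describe the named genes and do not test them as a group.

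**Figure D1:**
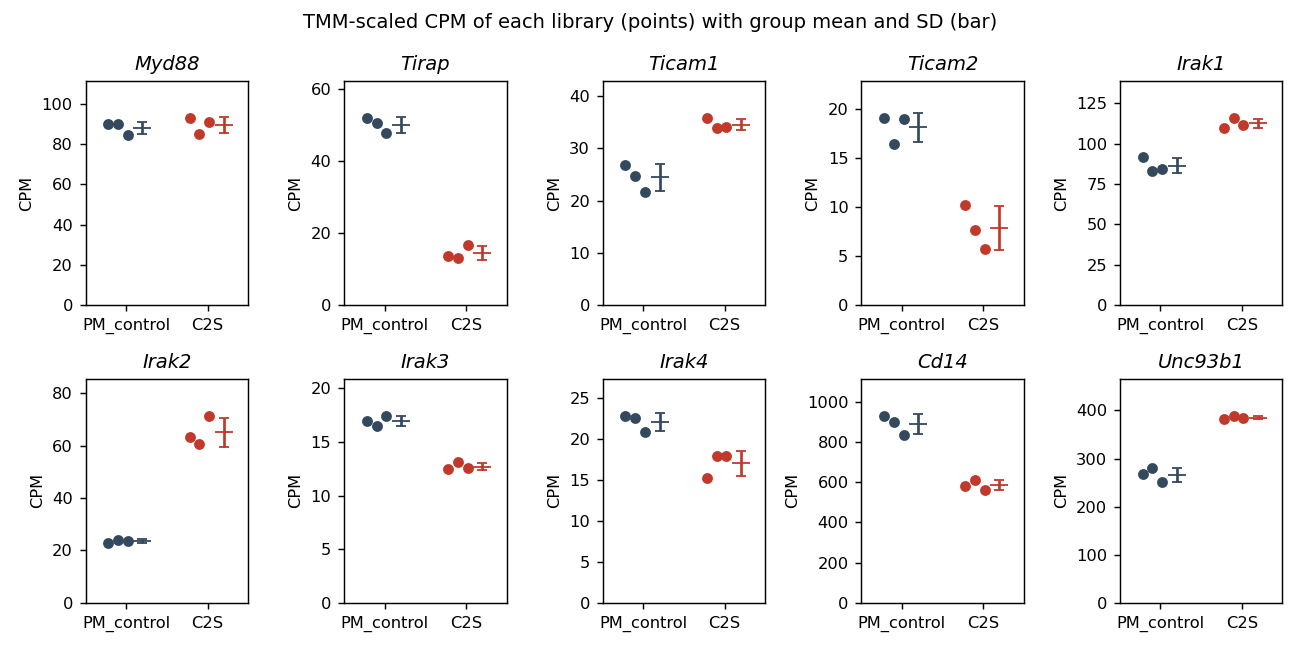
CPM of each of the 10 genes on a linear axis that starts at 0, with 3 PM_control libraries in dark grey and 3 C2S libraries in red, and bars for the group mean and SD. The groups are apart for every gene but Myd88, with the widest relative gaps for Tirap (50.1 against 14.6 CPM) and Irak2 (23.6 against 65 CPM).

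Among the signalling adaptors, Myd88 did not pass the test and Ticam1 rose. Gene positions are those of GENCODE M21 (GRCm38). Myd88 (ENSMUSG00000032508, chromosome 9, 119335934 to 119341411, minus strand), which serves all Toll-like receptors but TLR3, stood at 92.8, 85.2 and 91.2 CPM with C2S and at 90.0, 89.8 and 84.8 CPM in the controls. The ranges overlapped, with the highest of the 6 values in a C2S library, the lowest in a control and the second C2S library below 2 of the controls. Its log2 fold change was 0.03 ± 0.07 (SE; edgeR, adjusted p = 0.773), with a 95% interval of -0.12 to 0.17, and its sign changed in 5 of 20 alternative settings. Its exons overlap those of Acaa1a on the other strand over 11.3% of their length, and since strandedness is not given in the sources used here, its value is uncertain. The estimated counts of Myd88 were whole in every library, whereas those of Acaa1a were not. Ticam1 (ENSMUSG00000047123, chromosome 17, 56269319 to 56276786, minus strand) stood at 35.8, 33.9 and 34.1 CPM with C2S and at 26.9, 24.8 and 21.7 CPM in the controls. All C2S libraries lay above all controls, a rise of 0.50 ± 0.10 on the log2 scale, or 41.2% (edgeR, adjusted p = 0.000553).

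The bridging adaptors both fell. Tirap (ENSMUSG00000032041, chromosome 9, 35184551 to 35200291, minus strand), whose promoter is printed above, stood at 13.8, 13.2 and 16.8 CPM with C2S and at 51.9, 50.6 and 47.8 CPM in the controls. Every control was more than 2-fold above every C2S library, and the change of -1.78 ± 0.11 on the log2 scale (edgeR, adjusted p = 4.17e-10) is a 3.44-fold lower level. That is the place 212 from the bottom among 11561 fold changes. The antisense gene Gm39318 overlaps 9.05% of Tirap's exons, and its own counts were 9, 14 and 12 with C2S and 49, 41 and 35 in the controls. Those counts fell with Tirap's (log2 fold change -1.66; edgeR, adjusted p = 0.00038), and reads in the overlap cannot be told apart without strand. The estimated counts of both genes were whole in every library, so they give no sign that reads were shared out between them. Tirap held 110 to 148 reads with C2S and 455 to 566 in the controls, well above those of Gm39318.

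Ticam2 (ENSMUSG00000056130, chromosome 18, 46557291 to 46574533, minus strand) stood at 10.2, 7.69 and 5.77 CPM with C2S and at 19.1, 16.5 and 19.0 CPM in the controls. The groups did not overlap, although the C2S libraries spread over a wider relative range than the controls. The log2 fold change was -1.19 ± 0.18 (edgeR, adjusted p = 2.49e-05), a 2.28-fold lower level. Its exons overlap those of Tmed7 on the same strand over 14.5% of their length. In the C2S libraries its estimated counts (104, 64.3 and 51.2) were not whole, a sign that reads were shared out between the genes, so its value is uncertain. Tmed7 itself, a cargo receptor of the secretory pathway, fell by 0.21 on the log2 scale (edgeR, adjusted p = 0.019).

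Levels of different genes can be set beside each other in TPM, which is scaled for transcript length. Summed over the 4 adaptors, TPM was 133 ± 5.92 in the controls and 107 ± 2.97 with C2S (SD, n = 3 per group; exact permutation test, two-sided, p = 0.1, the smallest that 3 against 3 allow). Within that sum, the share of Myd88 was 59.2% ± 0.514 in the controls and 69.9% ± 0.753 with C2S, although its own CPM was not called. The share of Tirap went from 20.6% ± 1.79 to 8.19% ± 1.44, that of Ticam1 from 10.2% ± 0.815 to 16.8% ± 0.341 and that of Ticam2 from 10.1% ± 1.08 to 5.1% ± 1.34. Ranges of the groups did not overlap for any of the 4 shares, each with an exact two-sided permutation p of 0.1. A share can move because another member of the sum moved. Ratios within a library, chosen after the values were seen and not tested, show the same numbers by pair. Tirap stood at 0.348 ± 0.0333 of the TPM of Myd88 in the controls and at 0.117 ± 0.0207 with C2S. Ticam2 stood at 0.989 ± 0.142 of the TPM of Ticam1 in the controls and at 0.303 ± 0.0771 with C2S.

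**Figure D2:**
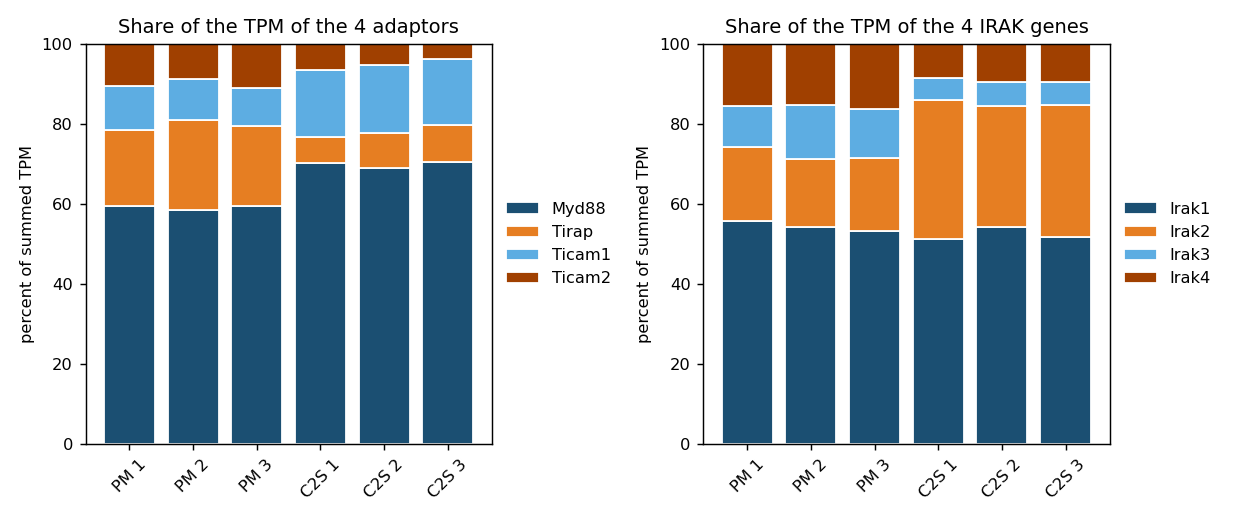
Stacked bars of the percent of summed TPM taken by each of the 4 adaptors (left) and each of the 4 IRAK genes (right), 1 bar per library with PM_control first (PM 1 to PM 3). The bands of Tirap and Ticam2 are narrower with C2S, and that of Irak2 widens from between 17.2% and 18.5% to between 30.3% and 34.9%.

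Of the IRAK genes, Irak2 and Irak1 rose and Irak3 and Irak4 fell. Irak2 (ENSMUSG00000060477, chromosome 6, 113638467 to 113695026, plus strand), which encodes a kinase-like protein that sustains the TRAF6 signal, stood at 63.3, 60.6 and 71.2 CPM with C2S and at 22.9, 24.2 and 23.7 CPM in the controls. Every C2S library was more than 2-fold above every control, a 2.75-fold rise (log2 fold change 1.46 ± 0.09; edgeR, adjusted p = 7.05e-10). It held place 560 from the top among 11561 fold changes. Gm43963, antisense to 4.44% of its exons, had at most 7 reads in any library. Irak1 (ENSMUSG00000031392, chromosome X, 74013914 to 74023918, minus strand), the kinase that IRAK4 activates in the receptor complex, stood at 110.0, 116 and 112 CPM with C2S and at 91.9, 83.0 and 84.3 CPM in the controls. The groups did not overlap, and the rise of 0.38 ± 0.07 on the log2 scale, or 30.1%, was called (edgeR, adjusted p = 0.000154).

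Irak4 (ENSMUSG00000059883, chromosome 15, 94543643 to 94581815, plus strand), the first kinase bound by MyD88, stood at 15.2, 17.9 and 17.9 CPM with C2S and at 22.8, 22.6 and 20.8 CPM in the controls. The groups did not overlap, but the first C2S library lay below the other 2. The log2 fold change was -0.38 ± 0.12 (edgeR, adjusted p = 0.0138), and without C2S replicate 1 it was -0.29 and no longer called (edgeR, adjusted p = 0.066; range over its 20 alternatives 0.00342 to 0.066). Twf1 overlaps 7.87% of Irak4's exons on the other strand and fell by 0.76 on the log2 scale (edgeR, adjusted p = 5.71e-07). The estimated counts of Irak4 and Twf1 were whole in every library, and the part of Twf1 reads in the value of Irak4 was not tested. Irak3 (ENSMUSG00000020227, chromosome 10, 120141648 to 120202130, minus strand), the restraining member of the family, stood at 12.5, 13.1 and 12.6 CPM with C2S and at 17.0, 16.5 and 17.4 CPM in the controls. Both groups were tight and apart, and the log2 fold change was -0.42 ± 0.13 (edgeR, adjusted p = 0.0115), so that it fell by 25%. Tmbim4 overlaps 5.22% of its exons on the other strand and was not called (edgeR, adjusted p = 0.2).

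Summed over the 4 IRAK genes, TPM was 85.8 ± 2.72 in the controls and 119 ± 6.06 with C2S (SD, n = 3 per group; exact permutation test, two-sided, p = 0.1). The share of Irak2 went from 18% ± 0.704 to 32.8% ± 2.3, that of Irak3 from 12% ± 1.47 to 5.8% ± 0.254 and that of Irak4 from 15.7% ± 0.565 to 9.11% ± 0.619, each with groups that did not overlap and an exact two-sided permutation p of 0.1. The share of Irak1 was 54.4% ± 1.21 in the controls and 52.3% ± 1.6 with C2S, with groups that overlapped (exact permutation test, two-sided, p = 0.2). Over these 10 exact tests of 8 shares and 2 sums, Benjamini-Hochberg adjusted values were 0.2 for Irak1 and 0.111 for the others. Pair ratios, chosen after the values were seen and not tested, were 0.33 ± 0.0129 for Irak2 over Irak1 in the controls and 0.627 ± 0.0619 with C2S. For Irak2 over Irak4 they were 1.15 ± 0.0458 and 3.62 ± 0.494, and for Irak2 over the restraining Irak3 1.52 ± 0.243 and 5.67 ± 0.637.

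The co-receptor and the chaperone were the most abundant of the 10 and moved in opposite directions. Cd14 (ENSMUSG00000051439, chromosome 18, 36725067 to 36726798, minus strand) stood at 579.7, 611 and 562 CPM with C2S and at 928, 901 and 832 CPM in the controls. All C2S libraries lay below all controls, and the change of -0.60 ± 0.06 on the log2 scale (edgeR, adjusted p = 4.39e-07) means that it fell by 34.2%. In TPM it exceeded 98.4% of the tested genes, by the mean of all 6 libraries. Unc93b1 (ENSMUSG00000036908, chromosome 19, 3935186 to 3949340, plus strand) stood at 383, 388 and 384 CPM with C2S and at 268, 280.0 and 251 CPM in the controls. The C2S libraries lay close together and above all controls, a rise of 0.53 ± 0.06 on the log2 scale, or 44.6% (edgeR, adjusted p = 8.83e-07). No gene overlaps the exons of Cd14, Unc93b1 or Ticam1.

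**Figure D3:**
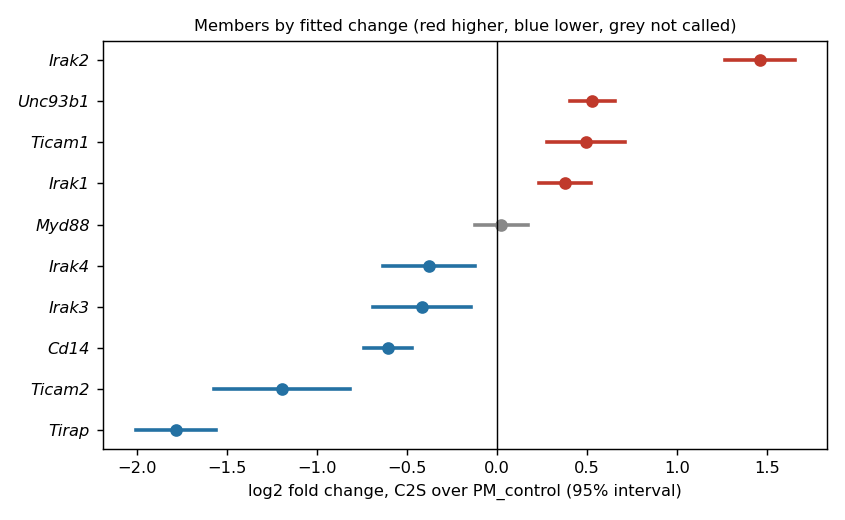
Fitted log2 fold changes of the 10 genes, C2S over PM_control, with 95% intervals as lines and genes ordered by value. Points run from -1.78 for Tirap to 1.46 for Irak2, and the interval of Myd88 alone (-0.12 to 0.17) includes 0.

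The order of levels was the same for the 4 most abundant genes in both groups and differed below them. In the controls, mean TPM fell from Cd14 (1030.1) through Unc93b1 (216), Myd88 (78.8), Irak1 (46.7) and Tirap (27.4) to Irak2 (15.4). Ticam1 (13.6), Irak4 (13.4), Ticam2 (13.4) and Irak3 (10.3) followed, and the ranges of Irak2 with Ticam1, of Ticam1 with Irak4 and of Irak4 with Ticam2 overlapped. With C2S the order was Cd14 (630.2), Unc93b1 (278), Myd88 (74.6), Irak1 (62.0), Irak2 (38.9), Ticam1 (17.9), Irak4 (10.8), Tirap (8.71), Irak3 (6.87) and Ticam2 (5.45), where only the ranges of Irak3 and Ticam2 overlapped among neighbours. Tirap thus held place 5 in the controls and place 8 with C2S.

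Transcripts with few exons stood lower with C2S across the data. Tested nuclear protein-coding genes with 1 to 2 exons centred on a log2 fold change of -0.50 (median of 543 genes), and 50.8% of them were called lower and 19.3% higher. Cd14 and Ticam1, with 2 exons each, belong to this class, and Cd14 (-0.60) lay near its median while Ticam1 (0.50) lay on the other side of 0. Ticam2 has 3 exons, and genes with 3 to 5 had a median of -0.14. The median was -0.01 for 6 to 9 exons, the class of Tirap and Myd88, and 0.05 for 10 to 14, the class of Irak2, Irak3, Irak4 and Unc93b1. Irak1 has 15 exons, in a class with a median of 0.06. The part of exon number in the members' changes was not tested.

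**Figure D4:**
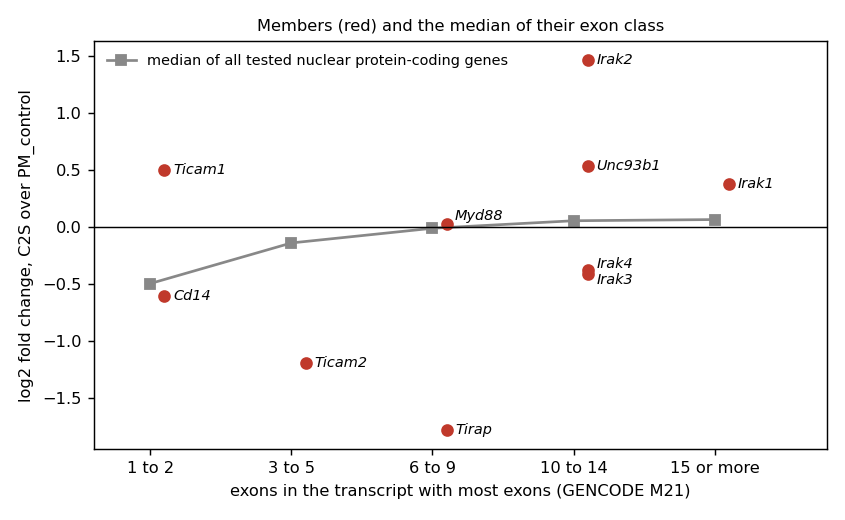
Log2 fold change of each of the 10 genes (red points) by the number of exons of its transcript with most exons, with the median of all tested nuclear protein-coding genes of that class (grey squares). Tirap, Ticam2 and Irak2 lie more than 1 log2 unit from the median of their class, and Cd14 lies close to it.

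The other genes of the pathway were described in 6 lists by their counts alone. Because the lists were chosen with earlier results of these data known, their counts do not test them against all genes. Of 13 genes, the Toll-like receptors with the related Cd180, 9 were tested, 9 fell and 0 rose (median -1.30), against 28.4% of all tested genes called lower. All of the tested ones but Tlr3 belong to the classes of 1 to 2 or 3 to 5 exons, where 50.8% and 36.8% of nuclear protein-coding genes were called lower. The part of exon number in these falls was not tested. Tlr5, Tlr8, Tlr11 and Tlr12 were below the filter, with at most 9 reads in a library. Cd180, a receptor homologue of B cells and macrophages, was lowest at -2.09 ± 0.08 on the log2 scale (edgeR, adjusted p = 2.7e-12), and Tlr2, which signals through TIRAP, was at -1.47 ± 0.09 (edgeR, adjusted p = 7.12e-10). Of the endosomal receptors carried by UNC93B1, named after their values were seen, 4 were tested and fell, with Tlr7 at -1.13 ± 0.09, Tlr13 at -1.30 ± 0.11, Tlr9 at -0.94 ± 0.15 and Tlr3 at -0.90 ± 0.27, while Unc93b1 itself rose. Tlr4, the receptor that CD14 and TRAM serve, and its partner Ly96 were also named after their values were seen. Tlr4 went from 20.0 ± 0.725 to 7.32 ± 2.23 CPM, whereas Ly96 had 24 to 32 reads in the controls, 17 to 32 with C2S, and was not called (edgeR, adjusted p = 0.714).

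Of 10 tested genes for partners and traffic of the receptors, 2 rose and 5 fell (median -0.19), beside 27% of all tested genes called higher and 28.4% lower. Cnpy3, a folding factor of Toll-like receptors, rose by 0.34 ± 0.08 on the log2 scale, and Scimp, a transmembrane adaptor of Toll-like receptors, by 1.74 ± 0.48 from 3 to 6 control reads. Nrros, known for restraining reactive oxygen species in myeloid cells, was at -1.18 ± 0.07 and Slc15a4, an endolysosomal transporter, at -0.49 ± 0.08. Of 6 interleukin-1 family receptor genes that use MyD88, 3 were tested, 1 rose and 0 fell, too few to set against those shares. The one that rose was Il1rap, the shared accessory chain, from 9.12 ± 1.59 to 20.7 ± 2.98 CPM, while Il1r1, named after its values were seen, had 1 read over all 6 libraries.

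Below the IRAK kinases, genes were called in both directions, as they were among all tested genes (27% higher and 28.4% lower). Of 11 tested genes for ubiquitin ligases and the TAK1 complex, 3 rose and 4 fell (median -0.00193), which is near those shares. Peli1, a ligase that acts on IRAK proteins, rose from 23.2 ± 3.01 to 51.4 ± 1.57 CPM and Traf6 from 60.1 ± 3.15 to 84.9 ± 9.77 CPM, while Tab1, a TAK1 partner, fell from 34.5 ± 4.23 to 13.1 ± 2.1 CPM and Traf3 was at -0.33 ± 0.07. Of 9 IKK and TBK1 kinase genes with their partners, 5 rose and 2 fell (median 0.27), with the count that fell near the share of all genes called lower. Ripk1 (0.50 ± 0.07) and Ikbkb (0.29 ± 0.07) were higher, and Tbkbp1 (-1.27 ± 0.09) and Ikbkg (-0.30 ± 0.09) were lower. The estimated counts of Ripk1 were not whole, so its value is uncertain. Of 11 negative regulators, 8 rose and 2 fell (median 0.32), against 27% of all tested genes called higher. Tollip, which binds IRAK1, rose from 77.3 ± 7.38 to 133 ± 4.21 CPM and Trafd1 rose by 1.10 ± 0.09 on the log2 scale, while Dok1 was at -0.72 ± 0.11 and Tnfaip3, the ubiquitin editor A20, at -1.05 ± 0.25.

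**Figure D5:**
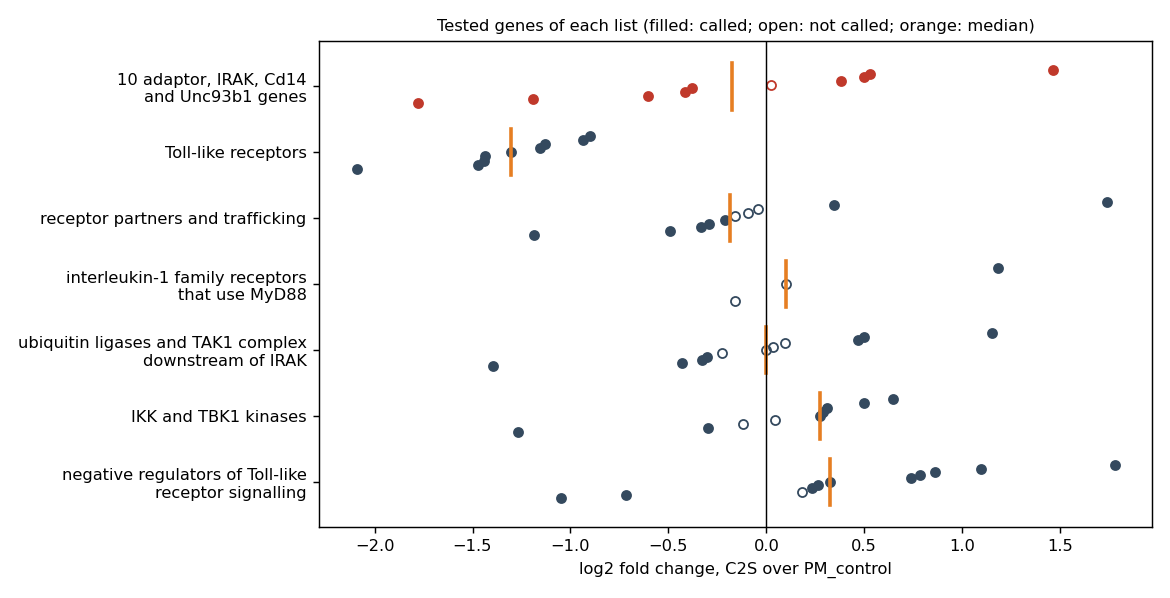
Log2 fold changes of the tested genes of each list, C2S over PM_control, with the 10 members in red, genes of the other lists in dark grey, called genes filled, genes not called open and the list median in orange. All 9 tested genes of the Toll-like receptor list, the related Cd180 among them, lie left of 0, while the 10 members lie on both sides.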

How the data were processed

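RNA of 3 C2S and 3 PM_control libraries was measured, with groups from the treatment labels and replicate numbers from the titles. Per the series design text, the authors trimmed reads with fastp, aligned them to mm10 with STAR and counted them with RSEM. No source used here gives tool versions, the gene annotation or whether reads were stranded. The deposited tables hold expected counts (RSEM's estimated reads per gene), TPM, FPKM (not used) and abundance-weighted transcript lengths, per the file headers. Symbols came from a table that matched 52403 of 52636 identifiers, and positions and exons from GENCODE M21 (GRCm38).

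Expected counts were rounded, filtered with filterByExpr (minimum count 10, minimum total 15; 11561 genes, 99.85% of counts) and tested with edgeR 4.0.16 (R 4.3.3, limma 3.58.1, DESeq2 1.42.0), TMM normalization and group as the only term. Means are of TMM-scaled CPM, fold changes are C2S over PM_control, and an SE is the log2 fold change over the square root of F, so it is approximate. Totals of 8594473 to 10665867 set the precision, and the floor of 3 reads covers counting error only. Chi-square over degrees of freedom between replicates was 4.3 to 6.46, a spread beyond counting error. Each library was treated as 1 replicate, although this spread does not show that they came from separate cultures. In simulated counts (11417 genes, 50 of them changed at each fold), 82% of 1.5-fold, 96% of 2-fold and 98% of 4-fold changes were recovered, and 5.08% of calls were false. In the data 55.4% of tested genes were called, a far larger part than was changed in the simulation, so these rates need not hold for the data. The 10 members, the lists and the tests were chosen with earlier results of these data known. Text names all 10 members and, per list, up to 2 genes per direction by adjusted p among called genes whose groups do not overlap. Of 12 macrophage markers, 11 matched. 1 marker gene of another list is not reported here. Alternatives, given at the end, changed scaling, tool, unit (limma on log2(TPM + 1) or log2(TPM + 0.1), where the mean TPM reached 1), filter, rounding, GC trend, block and libraries.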

Additional observations from a re-analysis of the deposited data

How the results depend on the processing

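Each of the 10 genes was recomputed under 20 alternatives, or 19 for Ticam2, which has no value without genes of non-whole counts. Direction and call held in all of them for Tirap, Ticam1, Ticam2, Irak1, Irak2, Irak3, Cd14 and Unc93b1. Irak4 lost its call without C2S replicate 1 (edgeR, adjusted p = 0.066). Myd88 was not called under any (adjusted p 0.396 to 0.976), but its log2 fold change changed sign with library sizes alone (-0.0616), with limma on log2(TPM + 1) (-0.0772) and log2(TPM + 0.1) (-0.0781), and with the GC trend removed (-0.0463). Leaving out 1 library gave it values from -0.00578 to 0.0600 (without PM_control replicate 3 and without C2S replicate 2). The cause was not tested. Members called higher numbered 4 under every alternative and members called lower 5, or 4 without C2S replicate 1 and without genes of non-whole counts. All genes called ranged from 4754 with log2(TPM + 0.1) to 7084 without a filter, around 6405. Limma on log2(TPM + 1) and log2(TPM + 0.1) shifted the median of all genes to -0.10 and -0.11, and the share of higher calls from 48.8% to 35.9% (38.3% with library sizes alone). The 8 shares of adaptor and IRAK TPM were recomputed only from expected counts and without each library in turn, and kept their direction in those 7 alternatives. For Irak1 the change was -2.04 percentage points in TPM (exact permutation test, two-sided, p = 0.2) and -3.65 in expected counts (same test, p = 0.1). Without 1 library its change in TPM was -1.39 to -2.95 percentage points.

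Same-numbered libraries did not clearly deviate together (correlations -0.0112, 0.0686 and 0.0344, with 3 of 6 libraries closest to their own number in the other group). Pairing by number was thus not seen, but so few libraries cannot exclude it. With the replicate number as a block, 6489 genes were called, with 4 members higher and 5 lower.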

Other observations

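The deposited tables also give, per library, the mean length of a gene's transcripts weighted by their estimated abundance, which no comparison above used other than through TPM. For Unc93b1 it was 2211, 2225 and 2236 bases with C2S and 2150, 2150 and 2124 bases in the controls, so the groups did not overlap. For Ticam2 it was 2309, 2316 and 2316 bases with C2S and 2326, 2332 and 2340.0 bases in the controls, also without overlap. For Tirap it was 2943, 2377 and 2620 bases with C2S and 3336, 2748 and 3090 bases in the controls, and these ranges overlapped. Lengths of Irak1, Irak2, Irak3 and Irak4 overlapped between the groups too, and Irak2 spread from 2314 to 2807 bases. Those of Myd88 lay between 1961 and 1967 bases, and Cd14 and Ticam1 have 1 annotated transcript each in the tables. TPM divides by such a length, so the TPM of Tirap, Ticam2, Unc93b1 and the IRAK genes moves with this estimate, and their CPM does not. The difference in Tirap's share of the adaptors, C2S minus PM_control, was -12.4 percentage points in TPM and -17.7 in expected counts. The part of length in that gap was not tested.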
